A study of Mus musculus with 12 samples.

Results

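The 10 genes described here mark fat cells, white and brown: Adipoq, Lep, Retn, Cfd, Plin1, Cidec, Cidea, Pck1, Ucp1 and Pparg. They were taken by symbol from a table of read counts for 24061 gene identifiers, and all 10 were found. They were chosen by their high read counts in 1 knockout heart, K11, so their values in that heart are given as a description, with no test. Whole hearts of male mice aged 4 months were sequenced, 6 knockout hearts (K7 to K12) and 6 wild-type hearts (W1 to W6), 1 library per mouse. Both groups carried floxed Slc4a4 alleles (Slc4a4flx/flx), the gene of the sodium-bicarbonate cotransporter NBCe1. The knockout mice also carried a Cre recombinase transgene under a β-myosin promoter active in cardiac myocytes, which deletes exon 12, and the wild-type mice had no Cre, so deletion and Cre cannot be told apart. Libraries held 10631869 to 12756955 counts in knockout hearts and 11367980 to 13327519 in wild-type hearts. Slc4a4 averaged 49.9 ± 11.4 CPM (counts per 1000000 counts of the library) in knockout hearts and 87.1 ± 18.6 CPM in wild-type hearts (SD, n = 6 each; log2 fold change -0.81, edgeR adjusted p = 0.089), with 5 of 6 knockout hearts below every wild-type heart.

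Fat cells store triglyceride in droplets coated by perilipin 1 (Plin1) and enlarged by the proteins Cidec and Cidea, and they release hormones, among them adiponectin (Adipoq), leptin (Lep) and, in mice, resistin (Retn). PPARγ (Pparg) is the nuclear receptor that drives fat cell differentiation and binds DNA with RXR. White fat stores lipid, while brown fat burns it for heat through the uncoupling protein Ucp1. In mice, fat lies outside the heart muscle at the base of the heart and around the great vessels, and the amount that stays on a dissected heart can differ. In bulk RNA of whole hearts, fewer fat cells and less RNA per fat cell cannot be told apart.

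Promoter windows of 3 members are shown because their transcripts followed different patterns over the hearts: Adipoq and Ucp1 both had K11, W6 and W1 as their 3 highest hearts, and Pparg did not. Each is the 250 bases before a RefSeq transcription start (GRCm38.p6), all on the plus strand, at chr16:23146286-23146535 for Adipoq, chr8:83290098-83290347 for Ucp1 and chr6:115421816-115422065 for the internal start of Pparg, which fat cells are known to use. Capitals mark matches to the motifs searched on both strands. These were the PPAR and RXR direct repeat (AGGNCA a pair of times in the same direction, 1 base apart), its half-site AGGTCA, the string TTGCNNCAA, TATAAA and CCAAT.
Adipoq: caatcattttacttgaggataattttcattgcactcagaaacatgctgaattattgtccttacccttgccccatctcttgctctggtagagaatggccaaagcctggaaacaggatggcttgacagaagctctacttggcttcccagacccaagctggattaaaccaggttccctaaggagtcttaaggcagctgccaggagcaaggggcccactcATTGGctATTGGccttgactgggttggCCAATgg
Ucp1: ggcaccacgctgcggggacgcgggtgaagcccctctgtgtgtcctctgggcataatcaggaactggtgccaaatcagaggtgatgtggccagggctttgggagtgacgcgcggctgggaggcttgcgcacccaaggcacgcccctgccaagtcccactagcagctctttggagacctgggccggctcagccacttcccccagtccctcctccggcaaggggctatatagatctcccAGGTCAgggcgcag
Pparg: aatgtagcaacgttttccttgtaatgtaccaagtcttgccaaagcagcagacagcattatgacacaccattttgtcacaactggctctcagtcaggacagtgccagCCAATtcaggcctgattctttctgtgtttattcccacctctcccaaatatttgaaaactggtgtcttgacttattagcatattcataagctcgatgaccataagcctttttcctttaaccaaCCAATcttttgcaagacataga
The table of promoters held 12 windows of 9 members, and none for Cidea was used. CCAAT was in 3 of the 12 windows, against 33.8% of 32851 windows of all genes. The half-site AGGTCA was also in 3 of 12, against 14.02%, and TATAAA in 1 of 12, against 12.4%. The full direct repeat and the string TTGCNNCAA were in 0 of 12, against 0.338% and 1.74%. A half-site lies within every full repeat that is spelled AGGTCA, so those 2 searches overlap. The matches describe letters in these windows and not sites in use. In the Adipoq window CCAAT stood at bases -34 and -27 on the minus strand and at -7 on the plus strand, counted back from the start. In the Ucp1 window the half-site stood at base -14.

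The hormone and secreted protein genes reached at most 11.4 CPM in any heart, and K11 and W6 were among the 4 highest hearts for each of them. For Retn these ranks rested on 1 read in K11 and 2 in W6, and W1 and W3 also held 1 read each. Adipoq, whose product raises insulin sensitivity, had a lowest value of 0.564, a median of 1.21 and a highest value of 6.79 CPM in knockout hearts, against 1.05, 2.54 and 3.47 CPM in wild-type hearts. The highest value was K11 (74 reads), and the other 5 knockout hearts averaged 1.34 ± 0.95 CPM (SD, n = 5), so the groups overlapped. Lep, the satiety hormone, ran from 0 over a median of 0.592 to 2.75 CPM in knockout hearts, against 0.450, 1.31 and 2.17 CPM in wild-type hearts. K9 held no Lep read, which at its depth allows up to 0.282 CPM (3 counts), and K11 held 30. Intervals and such limits cover counting error only, since reads without molecular identifiers are not independent molecules.

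Cfd encodes adipsin, complement factor D, a serine protease that fat cells secrete. It ran from 0.463 over a median of 1.84 to 6.97 CPM in knockout hearts, against 0.225, 2.53 and 11.4 CPM in wild-type hearts. K11 held 76 Cfd reads, below W6 (131 reads) and just above W5 (69 reads), while W2 held 3. Retn was near the limit of detection, with 1 read over all knockout hearts, in K11, and 18 reads over the wild-type hearts. Of those 18 reads W5 held 9 and W2 held 5, so the few resistin reads were not highest in the hearts where Cfd was highest. The ratio of pooled Retn reads per total count, knockout to wild type, was 0.0614, with an exact 95% counting interval from 0.00147 to 0.389 that leaves out the spread between hearts.

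The droplet and glycerol genes each had K11, W6, W1 and W5 as their 4 highest hearts. Plin1 ran from 0.941 over 1.41 to 6.15 CPM in knockout hearts (lowest, median and highest), against 0.805, 1.88 and 4.34 CPM in wild-type hearts. Cidec, a droplet fusion protein, ran from 0.705 over 1.35 to 3.76 CPM in knockout hearts, against 0.900, 2.49 and 4.51 CPM in wild-type hearts. Pck1, the cytosolic PEP carboxykinase that fat cells use to make the glycerol backbone of triglyceride, ran from 0.658 over 1.31 to 5.05 CPM in knockout hearts, against 0.644, 3.20 and 5.005 CPM in wild-type hearts. For Pck1, K11 (5.05 CPM) and W1 (5.005 CPM) were nearly equal, W6 held 4.86 CPM and W5 4.03 CPM, and W4 at 2.38 CPM was next. In all 3 of these genes the values of the groups overlapped.

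Cidea and Pparg did not follow them. Cidea, a droplet protein named for its homology to a DNA fragmentation factor and typical of brown fat, ran from 3.86 over 6.38 to 8.23 CPM in knockout hearts, against 4.08, 6.93 and 9.25 CPM in wild-type hearts. K7 was next to the highest heart, W1, and W6 next to the lowest, K9. Pparg ran from 8.26 over 12.6 to 14.98 CPM in knockout hearts, against 10.8, 12.7 and 15.01 CPM in wild-type hearts. K11 had the lowest Pparg value of all 12 hearts, and W6 the highest. Pparg reads were counted over the whole gene, so the isoform from the internal start is not separated from the others.

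**Figure D1:**
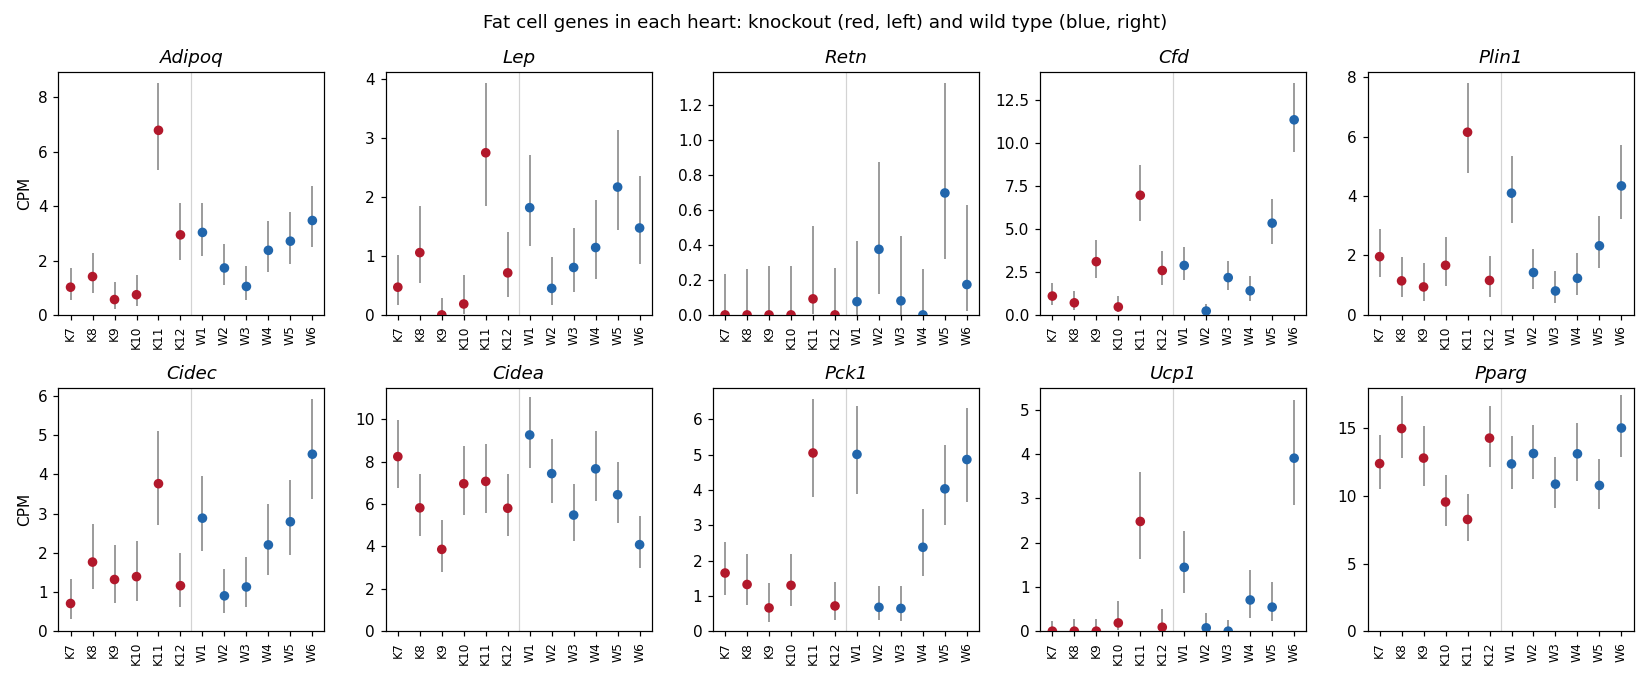
Each panel plots 1 fat cell gene, with CPM on the vertical axis and the 12 hearts along the horizontal axis, knockout hearts (red) on the left and wild-type hearts (blue) on the right. Bars are exact 95% Poisson counting intervals, and for a heart with no read they end at the limit of 3 counts. K11 is high in the panels of Adipoq, Lep, Cfd, Plin1, Cidec, Pck1 and Ucp1, where W6 reaches 11.4 CPM for Cfd and 3.91 CPM for Ucp1, and not in those of Cidea and Pparg.

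Ucp1, the brown fat uncoupling protein, was highest in W6, followed by K11 and W1. Knockout hearts ran from 0 over a median of 0.0446 to 2.48 CPM, against 0, 0.623 and 3.91 CPM in wild-type hearts. K11 held 27 of the 30 knockout reads, and W6 held 45 and W1 19 of the 80 wild-type reads. K7, K8, K9 and W3 held none, which allows up to 0.235, 0.264, 0.282 and 0.241 CPM (3 counts). As a share of the Ucp1 and Adipoq reads together, Ucp1 made up 26.7% in K11 (exact Clopper-Pearson 95% interval 18.4% to 36.5%, 101 reads) and 52.9% in W6 (41.8% to 63.9%, 85 reads). Both genes entered that difference, since K11 held 27 Ucp1 and 74 Adipoq reads and W6 held 45 and 40. In W1 the share was 32.2% (20.6% to 45.6%), in W4 22.9% (10.4% to 40.1%) and in W5 16.7% (6.97% to 31.4%). In K12, with 33 Adipoq reads, it was 2.94% (0.0744% to 15.3%), and in W2 4.17% (0.105% to 21.1%). The intervals describe these libraries and not the genotypes.

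The sum of 8 members, leaving out Cidea and Pparg after their values had been seen, shows the hearts side by side. It was 34.0 CPM in K11 and 5.93 to 9.36 CPM in the other 5 knockout hearts, against 34.1 CPM in W6, 21.2 in W1, 20.6 in W5, 11.4 in W4, 6.68 in W3 and 5.85 in W2. K11 and W6 were thus nearly equal, so the high fat cell values were not confined to K11. The sum averaged 11.7 ± 11.001 CPM in knockout hearts and 16.7 ± 10.8 CPM in wild-type hearts (SD, n = 6 each), and 7.24 ± 1.30 CPM in the 5 knockout hearts without K11. K11 was the highest of the 12 hearts for 4 of the 10 members (Adipoq, Lep, Plin1, Pck1) and W6 for 4 (Cfd, Cidec, Ucp1, Pparg), while Retn peaked in W5 and Cidea in W1. Over all 13832 genes tested, 10.7% were highest in K11 and 14.6% in W6.

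**Figure D2:**
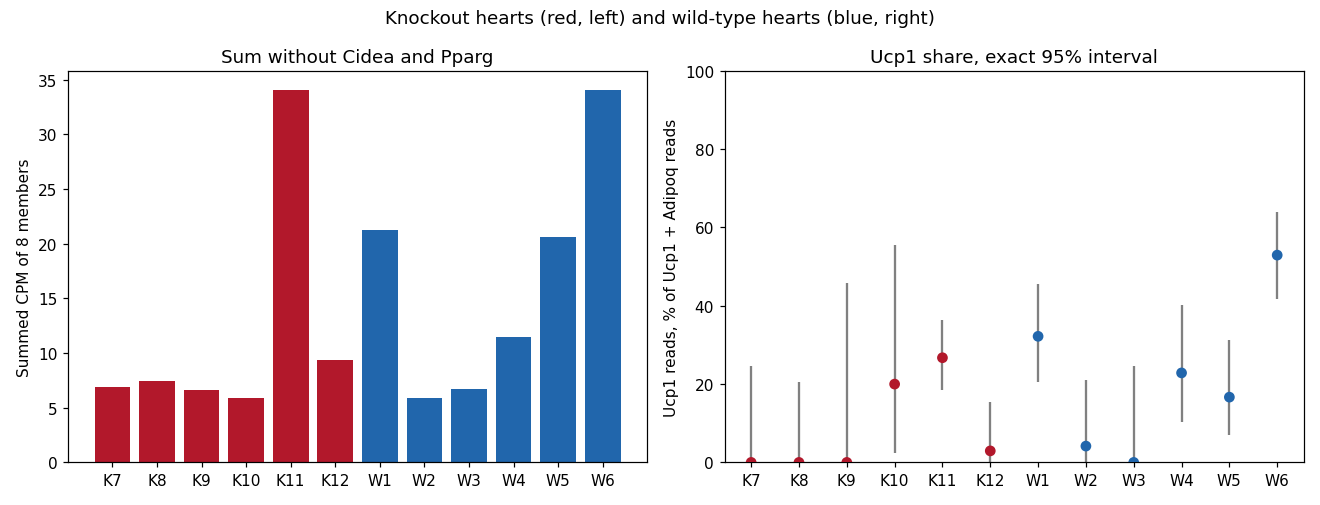
The left panel gives the summed CPM of 8 fat cell genes (Cidea and Pparg left out) in each heart, and the right panel the Ucp1 reads as a percentage of Ucp1 and Adipoq reads with exact 95% intervals, knockout hearts red and on the left, wild-type hearts blue. K11 and W6 have sums of 34.0 and 34.1 CPM, with Ucp1 shares of 26.7% and 52.9%.

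Against the median of the other 11 hearts, K11 was 4.31-fold for Plin1, 3.93-fold for Adipoq, 3.82-fold for Pck1, 3.42-fold for Lep, 3.21-fold for Cfd and 2.70-fold for Cidec. For Ucp1 the median of the other hearts was 1 read (0.0892 CPM), against 27 reads in K11, so no fold is given. It was 1.10-fold for Cidea and 0.645-fold for Pparg, and Retn has no such fold because that median is 0. These values chose the genes. Of the 8 members that passed the filter on low counts, 6 reached 2-fold, and of all genes tested 0.795% did. The members nearest to 2-fold were Cidec above it and Cidea below it.

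Levels between genes are compared per kilobase of exon, as CPM per kb over all 12 hearts. Cidea was highest at 5.83 ± 1.43 CPM per kb (SD, n = 12), followed by Pparg at 4.16 ± 0.71, Cfd at 3.46 ± 3.54 and Adipoq at 1.68 ± 1.24. Then came Cidec at 1.10 ± 0.65, Pck1 at 0.687 ± 0.537, Plin1 at 0.488 ± 0.363, Ucp1 at 0.480 ± 0.758, Lep at 0.324 ± 0.248 and Retn at 0.0789 ± 0.1339. Every pair of neighbours from Pparg down to Retn lay within the larger SD of the pair, and only Cidea stood above Pparg by more than the SD of either. The 2 highest genes were those that did not follow the others. The exon lengths join all annotated exons of a gene, which lowers the value of a gene with many isoforms.

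Wild-type hearts, whose values were not used to notice these genes, also differed among themselves. Over the 6 wild-type hearts the coefficient of variation (SD over mean of CPM) was 1.32 for Ucp1, 1.12 for Retn, 1.04 for Cfd, 0.680 for Pck1, 0.640 for Plin1, 0.551 for Cidec, 0.488 for Lep and 0.370 for Adipoq. It was 0.269 for Cidea and 0.127 for Pparg. Among tested genes within 2-fold of the same wild-type mean, the value of Cfd lay at percentile 99.97, Pck1 at 99.2, Plin1 at 98.0, Cidec at 94.9, Cidea at 80.8, Lep at 76.8, Adipoq at 69.4 and Pparg at 31.5. Cfd, Pck1 and Plin1 thus varied more between wild-type hearts than nearly all genes of like level.

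Of the white fat genes, 6 were alike in their pattern over hearts, a grouping made after their values were seen. Retn, with 1 read over the knockout hearts and 18 over the wild-type hearts, held too few reads to be placed. Between Adipoq, Lep, Cfd, Plin1, Cidec and Pck1, the 15 pairs had a median Pearson r of 0.83 in log2(CPM + 0.5) over the 6 wild-type hearts (0.59 to 0.95) and a median Spearman rho of 0.77 (0.60 to 0.94). Without K11, over 11 hearts, the median r was 0.66 (0.48 to 0.88) and the median rho 0.59. Retn had an r of -0.02 to 0.17 with these 6 genes in wild-type hearts. Over all 12 hearts its rho with them ran from 0.29 (Pck1) to 0.52 (Adipoq). Ucp1 with these 6 genes had a median r of 0.87 in wild-type hearts. Cidea had a median r of -0.06 with them and Pparg 0.33, where r ran from -0.15 to 0.52. These coefficients describe few hearts and share the libraries' depth.

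The comparison of genotypes asks whether loss of the cotransporter from myocytes moved these transcripts. Of the 10 members, 8 passed the filter on low counts and entered edgeR's quasi-likelihood test, and Ucp1 and Retn did not. Of these 8, 0 passed an adjusted p of 0.05 and 0 had an unadjusted p under 0.05, where over all genes the shares were 0% and 4.06%. All 8 had a negative fold change, knockout over wild type, as did 49.4% of all genes tested. Their median log2 fold change was -0.32, against 0.0018 over all genes. Each 95% interval (from the SE and the normal distribution) included 0. Of the 8, 0 had groups that did not overlap, against 0.239% of all genes.

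Pck1 had the log2 fold change farthest from 0, at -0.72 (SE 0.50, edgeR adjusted p = 0.999), with means of 1.78 ± 1.64 CPM in knockout hearts and 2.93 ± 1.99 CPM in wild-type hearts (SD, n = 6 each). Its interval ran from -1.70 to 0.27. Cfd was at -0.64 (SE 0.61), Lep at -0.61 (SE 0.56) and Cidec at -0.51 (SE 0.39). Plin1 was at -0.13 (SE 0.45), Adipoq at -0.11 (SE 0.46), Cidea at -0.10 (SE 0.20) and Pparg at -0.06 (SE 0.14). The narrowest interval was that of Pparg, from -0.34 to 0.22. With no filter, Ucp1 had a log2 fold change of -1.27 (SE 0.92, edgeR adjusted p = 0.89) and Retn -3.29 (SE 1.16, unadjusted p = 0.0089, edgeR adjusted p = 0.885). In that fit 0.0828% of the genes passed adjustment and 5.10% had an unadjusted p under 0.05, and fitted folds of so few reads depend on the prior count.

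The size of these values depended on single hearts. Without K11, Pck1 was at -1.35 (unadjusted p = 0.0114), Lep at -1.39 (0.0197), Cidec at -0.91 (0.0281) and Adipoq at -0.83 (0.0482), each with an edgeR adjusted p of 0.999. Cfd was then at -1.27 and Plin1 at -0.76, both with an unadjusted p above 0.05, Cidea at -0.13 and Pparg at 0.03. The count with an unadjusted p under 0.05 was 4 of 8, against 3.77% of all genes in that fit, and 0 of 8 passed adjustment, against 0.0144%. K11 was noticed for high values in these genes, so leaving it out lowers the knockout mean by construction. Without W6 the median over the 8 genes was -0.12, and Cfd came to 0.02. The sign also turned for Adipoq without K7, K9, K10 or W6, for Plin1 without K9, W1 or W6, for Cidea without K9 or W1, and for Pparg without K11.

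**Figure D3:**
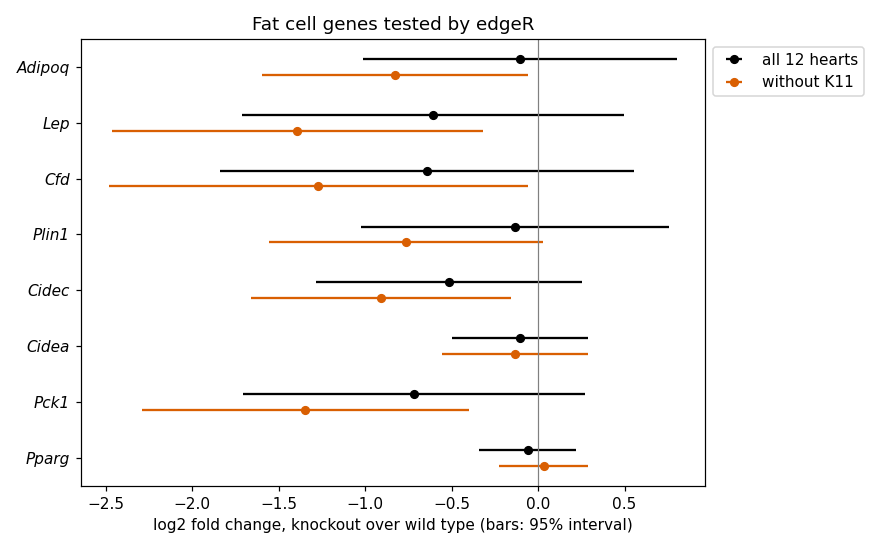
Points give the edgeR log2 fold change of each tested fat cell gene, knockout over wild type, with 95% intervals, over all 12 hearts (black) and without K11 (orange). All black intervals include 0, and without K11 the median moved to -0.87.

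Other genes of fat were described from 9 lists of 122 genes outside the 10 members, of which 106 were tested. The rule that chose the members did not use them, but the lists were chosen with earlier results of these data known. In the genotype comparison 0 of 106 passed, 42 fold changes were positive and 64 negative, and the median log2 fold change was -0.03, against 0.0018 over all genes. One, Ebf1, a transcription factor of fat cell progenitors, had an unadjusted p under 0.05 (44.2 ± 6.7 CPM in knockout hearts and 37.05 ± 5.99 CPM in wild-type hearts, SD, n = 6 each; log2 fold change 0.25, edgeR adjusted p = 0.999). K11 was the highest heart for 20 of the 106 (18.9%, against 10.7% of all genes), and W6 for 19 (17.9%, against 14.6%). With CPM scaled by TMM the count for K11 fell to 16, and the share over all genes is not given on that scale.

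Of 19 genes for triglyceride and fatty acid synthesis, 7 were highest in K11 (36.8%, against 10.7% of all genes), 2 reached 2-fold there, and the median ratio of K11 to the other hearts was 1.12. The 7 were Scd1, Fasn, Elovl6, Gpd1, Acaca, Scd2 and Acly, while the triglyceride synthesis genes Gpam, Dgat1 and Dgat2 had ratios of 0.772, 0.792 and 0.939. Scd1, the stearoyl-CoA desaturase, held 454.0 CPM in K11 and 39.5 to 121.2 CPM in the other knockout hearts, against 50.8 to 183.2 CPM in wild-type hearts, with W6 and W1 next after K11. Fasn, the fatty acid synthase, held 80.7 CPM in K11 and 32.1 to 44.0 CPM in the other knockout hearts, against 30.3 to 50.2 CPM in wild-type hearts. Elovl6, which lengthens fatty acids, held 9.998 CPM in K11, 1.83-fold the median of the other hearts. Neither Me1 nor Thrsp, the 2 of this list with the smallest p in the genotype comparison (unadjusted p 0.19 and 0.21), had its highest value in K11.

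Among 16 white fat markers, 12 were tested and 4 were highest in K11 (33.3%, against 10.7% of all genes). The median ratio of K11 to the other hearts was 1.30 over the tested markers. The summed level of the 16 in K11 was 1083.6 CPM, at rank 5, against 1480.9 CPM in W6. Levels in K11 are given below for the 4 markers that reached 2-fold there, as 0.795% of all genes did. Car3, a carbonic anhydrase abundant in white fat, held 101.9 CPM in K11 and 12.8 to 30.3 CPM in the other knockout hearts, against 20.04 to 89.99 CPM in wild-type hearts. Its 4 highest hearts, K11, W6, W5 and W1, were those with the highest fat cell sums, and the order of the other hearts differed from that of the sum. Trarg1, which takes part in glucose transporter traffic, held 7.89 CPM in K11 and at most 3.57 CPM in the other knockout hearts, against 3.12 to 4.42 CPM in wild-type hearts, and W6 was lowest of those. Acvr1c, an activin receptor of fat cells, was 2.42-fold the median in K11 and highest in W4. Lgals12, a galectin of fat cells, held 2.02 CPM in K11. Pde3b and Pnpla3 had the smallest p of these markers in the genotype comparison (log2 fold changes -0.30 and -0.48, unadjusted p 0.054 and 0.21).

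Brown fat markers gave a mixed picture. Of 20 genes, 10 were tested and 1 of them was highest in K11 (10%, against 10.7% of all genes). Of those tested, 0 reached 2-fold there, against 0.795% of all genes. Adrb3, the β3-adrenergic receptor of fat cells, was on the list of white fat markers and was too low to test. It had 9 reads in K11 and 12 in the other knockout hearts, against 23 in W6, 23 in W1 and 17 in the other wild-type hearts. It was named, as was Otop1, after its values were seen. Otop1, a proton channel enriched in brown fat, had 8 reads in K11 and 0 in the other knockout hearts, against 1 to 7 in wild-type hearts. Elovl3 and Fgf21 had 0 reads in every knockout heart and at most 0.155 and 0.0775 CPM in wild-type hearts. Cox8b, Cox7a1, Ppargc1a and Cpt1b are also abundant in heart muscle, and their ranges in both groups overlapped. Among the tested genes the largest ratios in K11 were 1.26 for Cox8b, 1.22 for Cox7a1 and 1.15 for Prdm16, and among those too low to test Otop1, Tmem26 (10 reads in K11) and Slc27a2 (6 reads) had larger ones.

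For the remaining fat lists, counts of genes highest in K11 are given beside the share of 10.7% over all genes tested. The lists are short, so these counts are not read as differences between lists. Of 12 droplet and lipolysis genes 0 were highest in K11, and their summed level there was the lowest of all hearts (868.6 CPM). Plin5 and Cideb had the smallest p of these (unadjusted p 0.093 and 0.095), and the largest ratios of K11 to the median were 1.18 for Bscl2, 1.16 for Cideb and 1.12 for Abhd5. Fabp4, a fatty acid binding protein of fat cells and also of the small vessels of the heart, held 232.3 CPM in K11 and 225.1 to 280.2 CPM in the other knockout hearts, against 229.2 to 291.8 CPM in wild-type hearts. It and Fabp5 had the smallest p of the 6 uptake and binding genes (unadjusted p 0.13 and 0.11), and Slc27a1, Cd36 and Lpl were at most 1.05-fold the median in K11. Of 12 secreted products 3 were highest in K11, namely Rbp4, the retinol carrier (3.42-fold the median), Sfrp5 (1.90-fold) and Retnla (1.41-fold), while Rarres2 and Lcn2 had the smallest p (unadjusted p 0.080 and 0.19). Of 7 receptors and their partners, including those of the fat hormones, 0 were highest in K11. Cdh13 and Lepr had the smallest p of these (unadjusted p 0.26 and 0.31), and K11 was at 1.16-fold for Lepr, 1.13-fold for Adcyap1r1 and 1.08-fold for Cap1. Of 20 partners of PPARγ and other transcription factors, 2 were highest in K11, and Srebf1, which drives lipid synthesis genes, was 1.39-fold the median there, Cebpa 1.35-fold and Ebf1 1.32-fold. Rxrb, a partner receptor, had an unadjusted p of 0.052 (log2 fold change -0.19). Of 10 tested progenitor and stromal genes, 3 were highest in K11, with Mgp at 1.30-fold, F3 at 1.24-fold and Pdgfra at 1.15-fold. Pi16 and Dpp4 had the smallest p of these (unadjusted p 0.15 and 0.41).

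**Figure D4:**
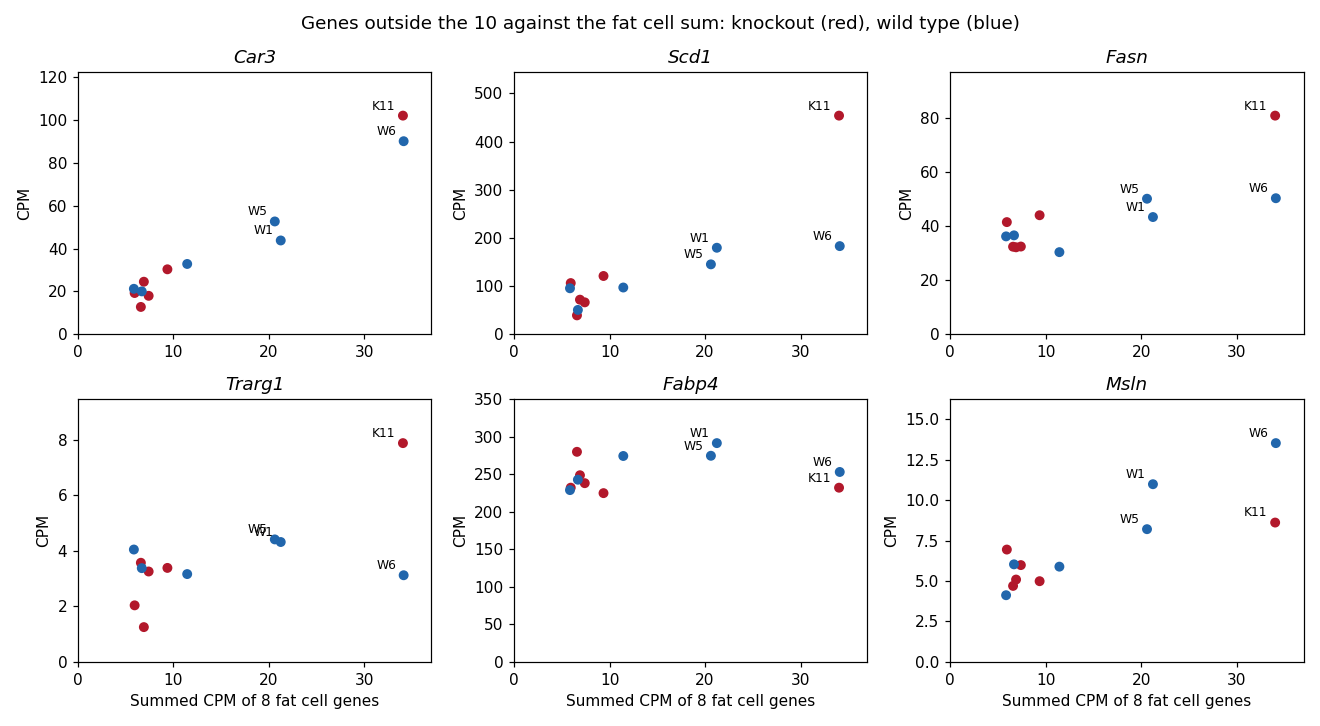
Each panel plots the CPM of 1 gene outside the 10 against the summed CPM of 8 fat cell genes, 1 point per heart, knockout red and wild type blue. Car3 reaches 101.9 CPM in K11 and 89.99 CPM in W6, the hearts with the highest sums, Scd1, Fasn and Trarg1 have their highest point in K11, and Fabp4 stays between 225.1 and 291.8 CPM.

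The 10 named, tested genes most like the summed CPM of the 10 members over 12 hearts were found by Pearson r in log2(CPM + 0.5). This sum includes Cidea and Pparg, which did not follow the other members. It was 23.2 CPM in K9 and 49.3 CPM in K11, against 6.58 and 34.0 CPM for the 8 members without them. They were Car3 (r = 0.95, rho = 0.88), Akr1a1 (0.92 and 0.80), Cdo1 (0.91 and 0.92), Ormdl3 (0.89 and 0.83), Armcx2 (0.87 and 0.81), Prkci (0.87 and 0.89), Hp (0.85 and 0.71), Fnbp1 (0.85 and 0.80), Phf12 (0.85 and 0.85) and Abcg3 (0.84 and 0.96). Without K11 and W6, the 2 hearts farthest from the median of the sum, r ran from 0.65 for Hp to 0.90 for Cdo1. Cdo1 encodes cysteine dioxygenase and Hp haptoglobin, both also made in liver. These are the highest coefficients among tested genes outside the members. Predicted and unnamed genes were skipped, and the coefficients carry no test.

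Markers of other tissues that could stay on a heart were read in the same hearts. Mesothelium, the lining of the heart surface, was represented by 8 genes with reads, whose summed level was 47.5 to 66.9 CPM in knockout hearts and 43.4 to 96.8 CPM in wild-type hearts. K11 was at rank 4 (65.2 CPM), behind W6 (96.8 CPM), W1 (74.2 CPM) and K10 (66.9 CPM). Msln, the defining mesothelial gene mesothelin, held 8.62 CPM in K11 and 4.70 to 6.95 CPM in the other knockout hearts, against 13.5 CPM in W6, 10.996 in W1, 8.21 in W5 and 4.13 to 6.04 CPM in the other wild-type hearts. The 4 hearts with the most Msln were those with the highest sum of the 8 fat cell genes. That match did not hold for the summed mesothelium level or for Upk3b, another gene of this list. Upk3b was highest in W6 (32.5 CPM), W1 (25.6 CPM), K11 (23.7 CPM) and K10 (22.0 CPM), with W5 at rank 6 (18.4 CPM). The part of mesothelium in the fat cell values was not tested.

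Lymph node genes summed to 2.50 to 8.37 CPM in knockout hearts and 2.20 to 8.10 CPM in wild-type hearts, with 0 of 10 at a mean of 1 CPM, and K11 was at rank 5. Thymus genes summed to 12.7 to 21.01 CPM in knockout hearts and 13.7 to 18.8 CPM in wild-type hearts. K11 was highest, but Psmb11 made up 17.98 CPM of its 21.01, and the defining genes Rag1, Rag2 and Foxn1 had no read in any heart. Lung genes stayed at 0.367 CPM or less in all hearts, and the airway genes Foxj1, Cldn18, Sftpa1 and Scgb3a2 had no read. Liver genes ran to 90.2 CPM in knockout hearts, in K7, and K11 held 9.54 CPM, within the wild-type range of 5.07 to 10.8 CPM. Alb, the defining liver gene albumin, held 4.13 CPM in K11 and ran from 1.34 to 62.2 CPM in knockout hearts, against 0 to 1.13 CPM in wild-type hearts, so the groups did not overlap (log2 fold change 5.43, SE 0.89, edgeR adjusted p = 0.083). Red cell genes were lower in K11 (5608 CPM, rank 10 of 12), and skeletal muscle genes, Schwann cell genes and macrophage genes were at ranks 9, 11 and 4 there. Cardiac myocyte genes summed to 64458 CPM in K11, the lowest of the knockout hearts, against 61346 to 69356 CPM in wild-type hearts. The part of these tissues in the fat cell values was not tested.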

How the data were processed

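Total RNA of whole hearts was sequenced from 6 knockout and 6 wild-type mice, and groups follow the titles of the samples. The authors deposited 1 table of unnormalized read counts, with a row for each gene. The tools that the submitters' processing notes list are TopHat, DESeq, bcl2fastq and CASAVA 1.8, beside build mm10. How reads were counted (program, annotation, strand, multi-mapping) was not given in the sources used here. Of 24061 identifiers, 23976 matched a RefSeq name (GRCm38.p6).

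The members, lists and tests were chosen with earlier results of these data known. CPM is the count per 1000000 counts of the library. Knockout was compared with wild type by edgeR 4.0.16 in R 4.3.3, with filterByExpr (minimum count 10, total 15), TMM, the quasi-likelihood F test and Benjamini-Hochberg adjustment at 0.05 over 13832 genes. The series design text gives 6 mice per genotype, so the spread is between animals. Named genes are all members, the 2 smallest p and 3 largest K11 ratios of each fat list (those of other tissues are given by sums), and the 10 genes most like the members. The search for likeness skipped predicted and unnamed genes. Exon lengths came from GENCODE M21. The scripts were tested on simulated counts. Alternatives were DESeq2 1.42.0, limma-voom (limma 3.58.1), other scalings, other filters and hearts left out. Plots used matplotlib 3.10.9.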

Additional observations from a re-analysis of the deposited data

Results flagged for a closer look

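For 18 of 122 group and gene combinations a single heart lay far outside the other 5, where chance gives about 6.1. The number cannot be read against that share, because the members were noticed for high values in K11, and the other genes were named for their ratio in K11, for a small p or for likeness to the sum of the members. In K11, among knockout hearts, these were Plin1 (6.15 CPM), Cidec (3.76 CPM), Pck1 (5.05 CPM), Ucp1 (2.48 CPM), Retn (0.0917 CPM, 1 read) and the summed CPM of the 10 members (49.3 CPM). Outside the members, K11 stood apart for Car3 (101.9 CPM), Cdo1 (9.45 CPM), Hp (5.78 CPM), Fnbp1 (98.2 CPM), Scd1 (454.0 CPM), Fasn (80.7 CPM) and Trarg1 (7.89 CPM).

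Among wild-type hearts W6 stood apart for Ucp1 (3.91 CPM), Armcx2 (13.4 CPM), Ebf1 (49.0 CPM) and Pi16 (66.2 CPM), a gene of stromal progenitors. Cd36, the fatty acid translocase, was low in K12 among knockout hearts (4754 CPM).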

How the results depend on the processing

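Over all genes edgeR called 0, with 562 at an unadjusted p under 0.05, and limma-voom also called 0. DESeq2 called 11 genes, edgeR without a filter 16, and a threshold of 0.1 gave 3. Leaving out single hearts gave 0 to 2. Under each of these settings 0 members were called.

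Slc4a4 kept its direction: its log2 fold change was -0.81 with DESeq2 (adjusted p = 0.000605), -0.81 without a filter (adjusted p = 0.0135) and -0.81 at the threshold of 0.1, each past the threshold. With limma-voom the adjusted p was 0.195. The fold change ran from -0.92 to -0.74 with single hearts left out, with an adjusted p from 0.0275 (without K8, the only one of these 12 fits past 0.05) to 0.335 (without W3).

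The median log2 fold change of the tested members ran from -0.87 to -0.12 with single hearts left out, and was -1.02 without W3 and K11 together. For the sum of the 10 members, W3 was the lowest wild-type heart (23.0 CPM) and K11 the highest knockout heart (49.3 CPM). Leaving out that pair lowers the ratio of knockout to wild type in the sum by construction. Signs turned with single hearts left out for Adipoq (-0.83 to 0.089), Cfd (-1.27 to 0.021), Plin1 (-0.76 to 0.11), Cidea (-0.22 to 0.0056) and Pparg (-0.13 to 0.031). Over the 8 tested members the median fold of K11, 3.31 over the other 11 hearts, was 4.59 over the other 5 knockout hearts. The median coefficient of variation among wild-type hearts ran from 0.502 to 0.671 with single hearts left out. The cause of these shifts was not tested.

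No paired analysis was possible because the 2 groups share no replicate numbers. Most members had fewer than 100 reads per heart, which limits precision.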
